A study of Mus musculus with 3 samples.

Results

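The respiratory chain and the mitochondrial ribosome were followed gene by gene in sorted stroma of mouse tumours. The genes were chosen by symbol alone, as nuclear genes named for a subunit of complexes I to V or for a protein of the mitochondrial ribosome. The rule used no measured value, but was set with earlier results of these data known. The set numbered 150 genes, read by 159 probe sets with a single gene symbol, among 22087 named genes on the array. Complex I held 33 of them, complex II 4, complex III 7, complex IV 17, complex V 18, and the large and small ribosomal subunits 43 and 28. All 3 samples came from Dicer1 +/- tumours of a model that the series title abbreviates as ASD, and Dicer1 +/+ stroma was not analysed here. Dicer1 encodes the enzyme that cuts microRNA precursors. The sort kept live cells, with DAPI as the dye for dead ones, that lacked PECAM1 (an endothelial surface protein) and the red fluorescent protein tdTomato, which was the mark of the tumour gate. Total RNA of each sample was read on 1 array. The labels name neither an age nor the promoter behind tdTomato, and do not tell whether 3 animals were used. Sex-linked genes, given below, set sample 1 apart from samples 2 and 3, so the arrays were not all of the same animal. Each SD below covers the spread between these arrays, part of which may be technical. With 1 group of 3 samples there was no comparison of groups and no test, and everything below is a description of these 3 arrays.

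Oxidative phosphorylation makes most of the ATP of a resting cell. Complexes I and II pass electrons from NADH and succinate to ubiquinone, complex III passes them on to cytochrome c, and complex IV gives them to oxygen, while complex V, the ATP synthase, uses the proton gradient that complexes I, III and IV build. A few core subunits are encoded in mitochondrial DNA and made inside the organelle by its own ribosome, whose proteins, like the other subunits of the chain, come from nuclear genes. Several complex IV subunits exist in a common form and a form restricted to certain tissues, such as muscle, testis, lung or vessel walls.

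Levels are log2 intensities, so that a difference of 1 is a 2-fold difference. A gene was called detected when it lay above a background reference on every array, which was set from 1438 probe sets for smell, pheromone and taste receptors (their 95th percentile) and lay at 5.16, 5.11 and 5.20 for samples 1 to 3. Sample 1 differed from the others in sex-linked genes, with Xist at 9.78 against 3.43 and 3.49, and Eif2s3y, a Y-linked gene, at 3.86 against 8.51 and 8.71. Pecam1, whose product was gated out, was above the reference in all 3 samples, at 8.02, 7.20 and 8.25. All 12 fibroblast, 10 macrophage and 12 neutrophil markers were detected, so RNA of several cell types was present, and fewer cells of a type cannot be told apart from less RNA per cell.

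Nearly all genes of the chain and of the mitochondrial ribosome were present. Of the 150 genes 142 (94.7%) were detected on all 3 arrays, where 60.5% of all 20658 named genes outside the receptors were, and 66.9% of the 17532 that code for protein. All 4 genes of complex II, all 7 of complex III and all 43 of the large ribosomal subunit passed. In complex I 32 of 33 passed, in complex V 16 of 18 and in the small ribosomal subunit 27 of 28. Complex IV was the lowest with 13 of 17 (76.5%). Of the 8 without full detection 5 stayed under the reference on every array, and 3 passed on 1 array alone.

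These genes were of different kinds. Cox7b2 (3.20, 3.09 and 3.41 in samples 1 to 3) and Cox8c (3.98, 3.81 and 4.0) encode testis forms of complex IV subunits, and Atp5c1-ps (3.23, 3.04 and 3.14) is a pseudogene of the ATP synthase gamma subunit. Mrps36 stood at 4.60, 4.68 and 4.99, and carries a ribosomal name although its product is now placed in the oxoglutarate dehydrogenase complex. Atp5g1, 1 of 3 genes for the c subunit of the ATP synthase rotor, read 4.44, 4.67 and 4.67. Its partners Atp5g2, at 10.75, 10.61 and 10.91, and Atp5g3, at 9.63, 9.55 and 9.51, were well above the reference. Cox7b, at 4.99, 5.27 and 5.08, passed on the array of sample 2 alone, and Ndufs5, a complex I subunit at 4.73, 4.85 and 5.26, on that of sample 3 alone. Cox8b, the muscle form of subunit 8, also passed on the array of sample 3 alone and is described below. A probe set under the reference is not shown to lack its RNA, since probe sets differ in brightness.

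Promoters of the genes were compared by sequence, because constitutively expressed genes of the chain are known targets of the factors NRF1, GABPA (of the ETS family) and YY1. RefSeq promoter windows of 300 bases in the GRCm38.p6 build, from 250 before to 50 after the start of the gene, were at hand for 126 genes in 137 windows. The ETS word CCGGAAG was found on either strand in 29.2% of these windows, against 8.86% of all 32851 windows of the table and 16.1% of those of genes detected on all 3 arrays. The centre of the NRF1 site, CGCATGCG, was in 11.7%, against 1.87% and 3.62%, and the YY1 word AAGATGGC in 15.3%, against 2.75% and 4.08%. The SP1 word GGGCGG was in 47.4%, against 35.7% and 60.2%, and did not stand above the detected genes. By group the ETS word ranged from 12.9% of complex I windows to 42.3% of those of the small ribosomal subunit among groups with over 10 windows. In the same groups the NRF1 centre ranged from 3.85% in the small ribosomal subunit to 22.2% in complex V. The YY1 word ranged from 0% in complex IV to 23.1% in the small ribosomal subunit. For ETS in complex I and YY1 in complex IV the share was thus below that of detected genes. A match is a run of letters and no evidence of binding.

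The windows below show what these words look like in genes that are described further on, with every match to 1 of the 4 words, on either strand, in capitals. Atp5j encodes coupling factor 6 of the ATP synthase, Cox6a1 the common form of complex IV subunit 6a and Mrps12 a protein of the decoding centre of the small ribosomal subunit. Atp5j holds the NRF1, YY1 and ETS words in 1 window (chr16:84834927-84835226, minus strand). Its other window (chr16:84835576-84835875, minus strand) holds the SP1 word alone and is not shown. Cox6a1 holds the NRF1, ETS and SP1 words (chr5:115348909-115349208, minus strand) and Mrps12 the YY1, ETS and SP1 words (chr7:28741772-28742071, minus strand).
Atp5j: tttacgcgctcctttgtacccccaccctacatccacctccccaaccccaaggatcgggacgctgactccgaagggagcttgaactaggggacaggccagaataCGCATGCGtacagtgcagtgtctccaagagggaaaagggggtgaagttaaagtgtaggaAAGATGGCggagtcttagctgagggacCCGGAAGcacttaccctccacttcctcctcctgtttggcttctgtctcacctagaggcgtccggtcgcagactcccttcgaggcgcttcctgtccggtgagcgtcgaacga
Cox6a1: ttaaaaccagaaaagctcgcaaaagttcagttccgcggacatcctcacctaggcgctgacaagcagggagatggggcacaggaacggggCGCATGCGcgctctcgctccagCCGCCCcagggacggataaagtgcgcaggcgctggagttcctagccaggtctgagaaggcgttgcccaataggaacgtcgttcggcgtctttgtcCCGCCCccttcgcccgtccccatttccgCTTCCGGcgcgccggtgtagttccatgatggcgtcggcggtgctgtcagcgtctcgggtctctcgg
Mrps12: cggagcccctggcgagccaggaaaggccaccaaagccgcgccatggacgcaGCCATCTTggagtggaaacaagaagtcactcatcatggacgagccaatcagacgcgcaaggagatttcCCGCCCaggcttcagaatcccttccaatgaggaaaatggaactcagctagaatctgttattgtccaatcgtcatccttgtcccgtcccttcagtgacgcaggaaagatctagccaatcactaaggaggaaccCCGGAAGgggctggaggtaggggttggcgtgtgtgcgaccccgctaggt

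The common gene Cox8a and the muscle genes Cox8b and Cox7a1 are set side by side next. Cox8a and Cox8b were both lowest in sample 1 and highest in sample 3, while Cox7a1 was highest in sample 2 and lowest in sample 3. The Cox8a window (chr19:7217567-7217866, minus strand) holds the ETS word in 2 places. Those of Cox8b (chr7:140900397-140900696, minus strand) and Cox7a1 (chr7:30183921-30184220, plus strand) hold none of the 4 words and therefore have no capitals. The 3 windows were chosen for this contrast: those of the common genes Cox5b, Cox7b and Cox7c hold none of the words either, and those of the restricted Cox6b2 and Cox7b2 hold the SP1 word.
Cox8a: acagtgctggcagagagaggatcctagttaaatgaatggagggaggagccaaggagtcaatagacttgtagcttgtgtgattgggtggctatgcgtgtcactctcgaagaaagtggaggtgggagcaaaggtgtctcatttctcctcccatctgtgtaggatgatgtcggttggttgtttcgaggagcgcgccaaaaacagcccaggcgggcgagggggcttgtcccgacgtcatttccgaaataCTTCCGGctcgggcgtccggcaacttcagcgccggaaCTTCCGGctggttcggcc
Cox8b: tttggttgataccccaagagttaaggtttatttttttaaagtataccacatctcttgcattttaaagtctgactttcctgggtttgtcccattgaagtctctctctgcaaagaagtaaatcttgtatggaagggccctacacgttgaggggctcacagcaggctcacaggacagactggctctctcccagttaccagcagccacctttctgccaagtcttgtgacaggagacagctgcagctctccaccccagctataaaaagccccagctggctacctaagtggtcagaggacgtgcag
Cox7a1: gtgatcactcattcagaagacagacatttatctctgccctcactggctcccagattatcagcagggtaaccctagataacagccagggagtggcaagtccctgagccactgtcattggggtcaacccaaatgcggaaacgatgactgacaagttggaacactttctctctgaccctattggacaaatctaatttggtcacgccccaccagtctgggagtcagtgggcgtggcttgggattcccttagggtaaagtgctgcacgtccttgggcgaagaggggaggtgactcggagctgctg

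The 64 genes with an NRF1, ETS or YY1 word were all detected on all 3 arrays, and 56 of the 62 without one were. The restricted forms Cox7b2 and Cox8b were among those not so detected. Shares for all named genes with and without these words were not counted, so the difference cannot be read as a trait of this set. The median range of the 64 genes over the samples was 0.216, against 0.246 for those without. Single words differed: the medians with and without the word were 0.169 and 0.246 for ETS, 0.207 and 0.239 for YY1, 0.252 and 0.233 for NRF1, and 0.237 and 0.235 for SP1.

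The genes of the chain and of the mitochondrial ribosome varied little between the samples. Over the 145 genes detected on at least 1 array the median range, the highest minus the lowest of the 3 values, was 0.227 on the log2 scale, against 0.312 for all 13636 named genes so detected. It was 0.174 for complexes I to V and 0.246 for the mitochondrial ribosome. Only 2 of the 145 (1.38%), Ndufa4l2 and Cox8b, had a range above 1, where 5.7% of all genes did, and Cox8b was above the reference in sample 3 alone. At 1.5-fold the count was 5 (3.45% against 19.9% of all genes), with Cox7a1, Ndufa12 and Mrpl45 added. At the narrow end 86 genes (59.3%) kept within a range of 0.25, as 39.2% of all genes did. The same held when all genes detected on all 3 arrays were cut into 3 equal parts by mean level. The median ranges were 0.182 for 16 genes of the chain or ribosome against 0.28 for all in the lowest part, 0.238 for 52 against 0.319 in the middle and 0.191 for 74 against 0.305 in the highest. Exactly equal values on 2 or more arrays occurred in 21 of the 145 genes (14.5%), against 10.8% of all genes, and Ndufb9 and Uqcr11 had the same value on all 3. Such ties lower a range and an SD, and their origin was not tested.

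**Figure D1:**
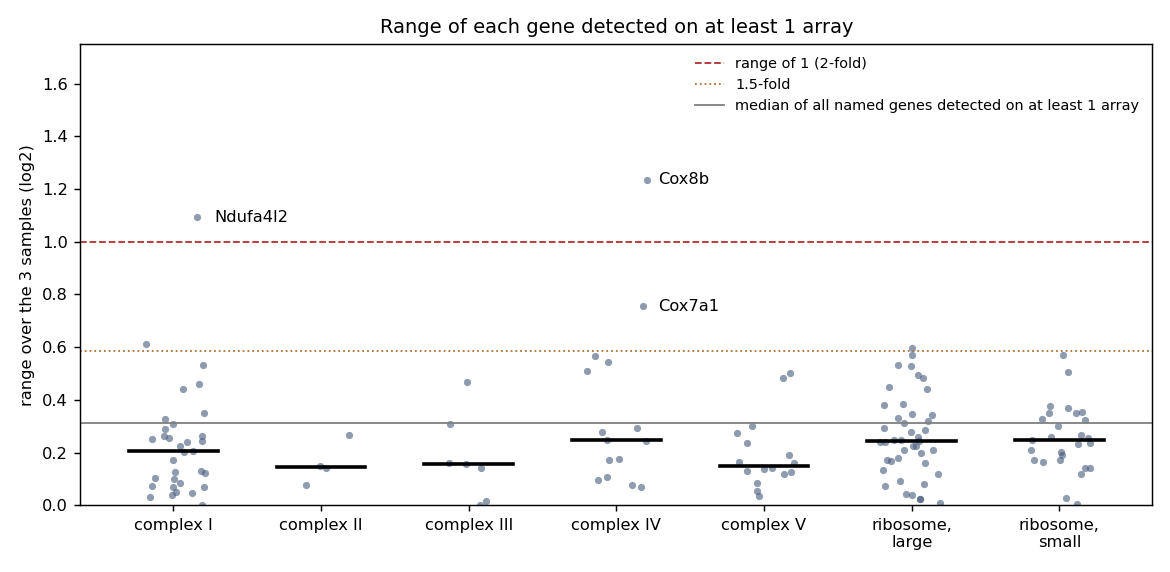
Range over the 3 samples, in log2 units, of each gene of the respiratory chain and mitochondrial ribosome that was detected on at least 1 array (points), by group, with the group median (black bar). Dashed and dotted lines mark 2-fold and 1.5-fold and the grey line the median of all named genes, 0.312; Cox8b and Ndufa4l2 lie above 1 and all other points below it.

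Groups of these genes differed in how the samples were ordered. A sample is described by the median, over the genes of a group, of each gene's distance from its own mean of the 3 arrays. Over all 150 genes these medians were 0.053, -0.014 and -0.027 for samples 1 to 3, a span of 0.080 (1.06-fold), and those of all detected genes lay between -0.0070 and 0. Sample 1 was the highest in 77 of 145 genes (53.1%, against 28.8% of all genes), sample 2 in 32 (22.1% against 32.5%) and sample 3 in 25 (17.2% against 32.8%), with 11 ties at the top. Sample 3 was the lowest in 62 (42.8% against 33.3%), sample 2 in 44 (30.3% against 29.4%) and sample 1 in 27 (18.6% against 31.2%). Between samples 2 and 3 alone, without sample 1, the span was 0.0033, so the order of the whole set rests on sample 1. That sample also differed from the others in sex-linked genes, and whether this bears on the order was not tested.

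**Figure D2:**
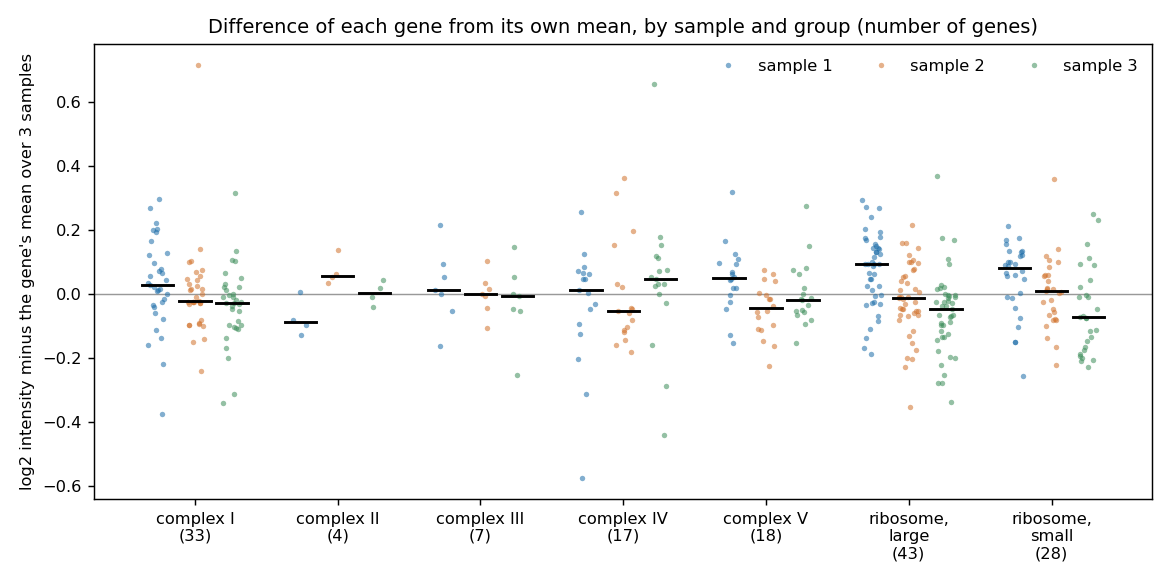
Log2 intensity of each of the 150 genes minus its own mean over the 3 samples (points), by group and sample, with the median (black bar). Both ribosomal subunits have their highest median in sample 1 and their lowest in sample 3, while complex II has its lowest median in sample 1.

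The mitochondrial ribosome showed this order, and the chain did not. Over the 79 genes of complexes I to V the medians were 0.022, -0.023 and -0.0090, lowest in sample 2, a span of 0.045. Over the 71 ribosomal genes the sample medians were 0.092, -0.0093 and -0.066. Their span was wider, 0.157 (1.12-fold), and was 0.024 without sample 1. Sample 1 was the highest in 26 of 43 genes of the large subunit (60.5%) and in 15 of 27 detected genes of the small one (55.6%). Among all genes the share was 28.8%. Sample 3 was the lowest in 20 (46.5%) and 16 (59.3%), against 33.3% of all genes. None of the 70 detected ribosomal genes differed by 2-fold between samples, where 5.7% of all genes did. In the same samples the T cell markers, 7 measured genes, had medians of 0.89, -0.83 and 0.086 and the B cell markers, 8 genes, 0.87, -0.48 and -0.40, both highest in sample 1. Markers of dividing cells went another way, with 0.010, -0.18 and 0.29. The part of these cell types in the ribosomal values was not tested.

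Single ribosomal genes illustrate the sizes. Mrpl34 stood at 8.29, 7.98 and 7.72 in samples 1 to 3, mean 8.0 ± 0.29 (SD, n = 3), and Mrpl50 at 7.91, 7.85 and 7.37. Mrpl45, the mammalian protein that ties the ribosome to the inner membrane, was highest in sample 3 and had the largest range of the ribosome, at 6.53, 6.44 and 7.04. In the small subunit Mrps14 was highest in sample 2, at 5.32, 5.83 and 5.26, not far above the reference. Mrps26 was highest in sample 3, at 7.20, 7.46 and 7.71, and Mrps25 lowest there, at 7.49, 7.36 and 7.12. At the other end Mrpl57 (6.97, 6.94 and 6.96) and Mrpl1 (6.09, 6.05 and 6.05) differed by less than 0.04. Mrps9 and Mrps11 had ranges of 0.121 and 0.142. Mrps12 was at 7.66, 7.43 and 7.68, and Mrpl12, the stalk protein that recruits translation factors, at 7.24, 7.19 and 7.02. The order of the samples thus differed from gene to gene.

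Complex I, the NADH dehydrogenase, had sample medians of 0.027, -0.023 and -0.028, a span of 0.055. Most of the subunits that hold its flavin and iron-sulphur clusters had narrow ranges. Ndufs1, the largest subunit, was at 7.88, 7.81 and 7.81 (mean 7.83 ± 0.039, SD, n = 3), Ndufv1, which binds NADH, at 8.48, 8.61 and 8.53 (mean 8.54 ± 0.065), and Ndufs8 at 8.83, 8.74 and 8.73. Ndufs7, at 7.54, 7.75 and 7.80, was lowest in sample 1, and Ndufv2, at 9.04, 8.67 and 8.60, highest there. Among accessory subunits Ndufa12 had the widest range after Ndufa4l2, 0.61, at 8.62, 8.34 and 8.01, and Ndufa6 was at 9.71, 9.25 and 9.51. Ndufa5 was the steadiest without ties, at 8.28, 8.23 and 8.25.

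Complex II, succinate dehydrogenase, belongs to the citric acid cycle as well and has no subunit encoded in mitochondrial DNA. Its 4 genes were all highest in sample 2, as 32.5% of all genes were. Of the 4 genes 3 were lowest in sample 1, as 31.2% of all genes were. The sample medians were -0.089, 0.057 and 0.0043. The flavoprotein gene Sdha was at 9.08, 9.22 and 9.18, and the iron-sulphur gene Sdhb at 7.92, 7.95 and 7.87. The membrane anchors Sdhc, at 8.32, 8.59 and 8.44, and Sdhd, at 8.33, 8.47 and 8.47, completed the enzyme. The largest of these ranges, that of Sdhc, was 0.268, and 4 genes are too few to set against the other groups.

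Complex III had the smallest span of sample medians, 0.017, with 3 of its 7 genes tied. With the tied genes left out the span was 0.089. The Rieske iron-sulphur gene Uqcrfs1 was at 7.01 in sample 1 and at an equal 6.99 in the others. The core proteins differed in order: Uqcrc1 was at 8.34, 8.52 and 8.65, and Uqcrc2 at 9.12, 8.98 and 8.98. Uqcrb, which binds ubiquinone, had the widest range, at 9.64, 9.46 and 9.17, and Uqcrh was at 9.44, 9.28 and 9.44.

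Complex V had sample medians of 0.049, -0.045 and -0.018. Of its 16 detected genes 10 (62.5%, against 28.8% of all genes) were highest in sample 1. The catalytic subunits were steady, with Atp5a1 at 10.61, 10.59 and 10.57 (mean 10.59 ± 0.018, SD, n = 3) and Atp5b at 10.83, 10.80 and 10.93. Atp5d, the delta subunit of the central stalk, varied most, at 7.72, 7.54 and 8.04. Atp5mpl, a small membrane subunit, read 10.20, 9.72 and 9.73, while Atp5e, the epsilon subunit, was at 11.34, 11.27 and 11.26. Atp5j, with 3 of the words in the window shown, read 8.01, 7.96 and 8.01. Of the c subunit genes Atp5g2 was highest in sample 3 and Atp5g3 in sample 1.

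Complex IV, cytochrome c oxidase, had sample medians of 0.013, -0.055 and 0.048 over its 17 genes. By these it was the only group with its highest median in sample 3. Over its 13 genes detected on all 3 arrays the medians were 0.048, -0.047 and 0.032, highest in sample 1, so its order rests on genes without full detection. Cox4i1, the common form of subunit 4, was at 10.71, 10.65 and 10.76 (mean 10.71 ± 0.054, SD, n = 3), Cox5a at 9.82, 9.73 and 9.77, and Cox5b at 9.51, 9.27 and 9.50. Cox6a1 was at 11.29, 11.35 and 11.36, Cox6b1 at 9.88, 9.82 and 9.90 and Cox7a2 at 10.28, 10.10 and 10.26. Cox7a2l, which holds complexes III and IV together in supercomplexes, was at 8.91, 8.66 and 8.96. Cox7c had a wider range, 0.54, at 7.52, 7.29 and 6.97. Cox6c was not analysed here.

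The tissue-restricted forms varied more than the other genes. Over the 6 of these 8 genes that were detected on at least 1 array the median range was 0.662, and over the 139 other detected genes 0.224. Cox8b entered this count only through sample 3, where it was highest. Among genes detected on all 3 arrays the median range was 0.57 for 5 restricted forms and 0.211 for the 137 others, and Ndufa4l2 was the 1 gene above 2-fold. The 8 were listed as tissue-restricted forms with earlier results of these data known.

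Ndufa4l2 had the widest range among the genes detected on all 3 arrays. Samples 1 to 3 read 7.91, 9.0 and 7.94 (mean 8.28 ± 0.62, SD, n = 3). Sample 2 was apart and the other two differed by 0.033, which is also the range without sample 2. Its product resembles NDUFA4, a protein named for complex I and now placed in complex IV (both are counted with complex I here, by name), and the gene is known as a target of hypoxia-inducible factor and as a pericyte gene. Ndufa4 itself had its highest value in sample 1, at 10.99 against 10.74 and 10.74.

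Cox4i2, the form of subunit 4 known from lung and vessel walls, had the same order. It was at 7.05, 7.62 and 7.10, a range of 0.57 with sample 2 the highest, and without sample 2 the range was 0.045. Cox4i1 was lowest in that sample.

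Markers of several cell types were highest in sample 2 as well, those of pericytes and vascular smooth muscle among them. So were 11 of 12 fibroblast, 7 of 10 macrophage and 7 of 10 gland and airway markers. All 9 pericyte markers were above the reference on at least 1 array and 8 on all 3, all but Higd1b, with sample medians of -0.15, 0.59 and -0.38, and all 9 were highest in sample 2. The widest were Higd1b (5.41, 6.35 and 4.88), Abcc9 (8.07, 8.78 and 7.59) and Rgs5 (9.93, 10.64 and 9.47). Of 10 smooth muscle markers 9 were highest in sample 2, with medians of -0.015, 0.57 and -0.61, led by Myh11 at 8.81, 10.02 and 7.90, Cnn1 at 8.15, 8.92 and 7.16 and Tagln at 9.19, 9.87 and 8.37. The medians of pericyte, smooth muscle, fibroblast and macrophage markers were lowest in sample 3, and that of gland and airway markers was lowest in sample 1. Ndufa4l2 and Cox4i2 were about equal in samples 1 and 3. The part of any of these cell types in the values of both genes was not tested.

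Cox7a1, the form of subunit 7a of heart, skeletal muscle and other contractile or brown fat cells, was at 5.85, 6.04 and 5.29. It was highest in sample 2 and lowest in sample 3, close to the reference there. The medians of smooth muscle, fibroblast and macrophage markers were also highest in sample 2 and lowest in sample 3, while that of skeletal muscle fibre markers was highest in sample 3. Its range of 0.76 was 0.19 without sample 3.

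Cox8b, the muscle and brown fat form of subunit 8, had another order. Its values were 4.34, 4.84 and 5.58, under the reference in samples 1 and 2, so that its range of 1.24 has no firm size. Without sample 1 the range was 0.74 and without sample 3 it was 0.50. Of 14 skeletal muscle fibre markers 8 were detected on all 3 arrays, with medians of -0.25, -0.16 and 0.45, highest in sample 3 like Cox8b. Acta1 was at 8.27, 8.01 and 9.39, Mylpf at 7.30, 7.0 and 8.34, and Myh1, above the reference in sample 3 alone, at 4.60, 3.94 and 5.44. These had the widest ranges with Mb, whereas Ckm (5.18, 5.45 and 5.37) and Actn3 (6.25, 6.50 and 6.36) were highest in sample 2. Myh2, Myh4, Myh7, Pvalb and Ckmt2 were under the reference on every array. Of the 10 fat cell markers 5 were detected, with list medians of 0.0084, 0.035 and -0.027, and the brown fat genes Ucp1, Cidea and Elovl3 were under the reference on every array. Dio2, which brown fat also expresses, was detected at 6.85, 8.55 and 7.12, the widest range of the list and highest in sample 2. The common gene Cox8a, at 10.42, 10.45 and 10.67, was highest in sample 3 too, with a range of 0.25. The part of muscle cells in the Cox8b value was not tested.

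Of the 6 detected restricted forms 4 (66.7%, against 32.5% of all genes) were highest in sample 2. The fourth of them was Cox6b2, a testis form, at 7.16, 7.67 and 7.59, which had its lowest value in sample 1 as Ndufa4l2 and Cox4i2 did. Cox6a2, the heart and skeletal muscle form of subunit 6a, was at 7.84, 7.67 and 7.81, a range of 0.17 in samples whose muscle fibre medians spanned 0.70. It was the only restricted form highest in sample 1.

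**Figure D3:**
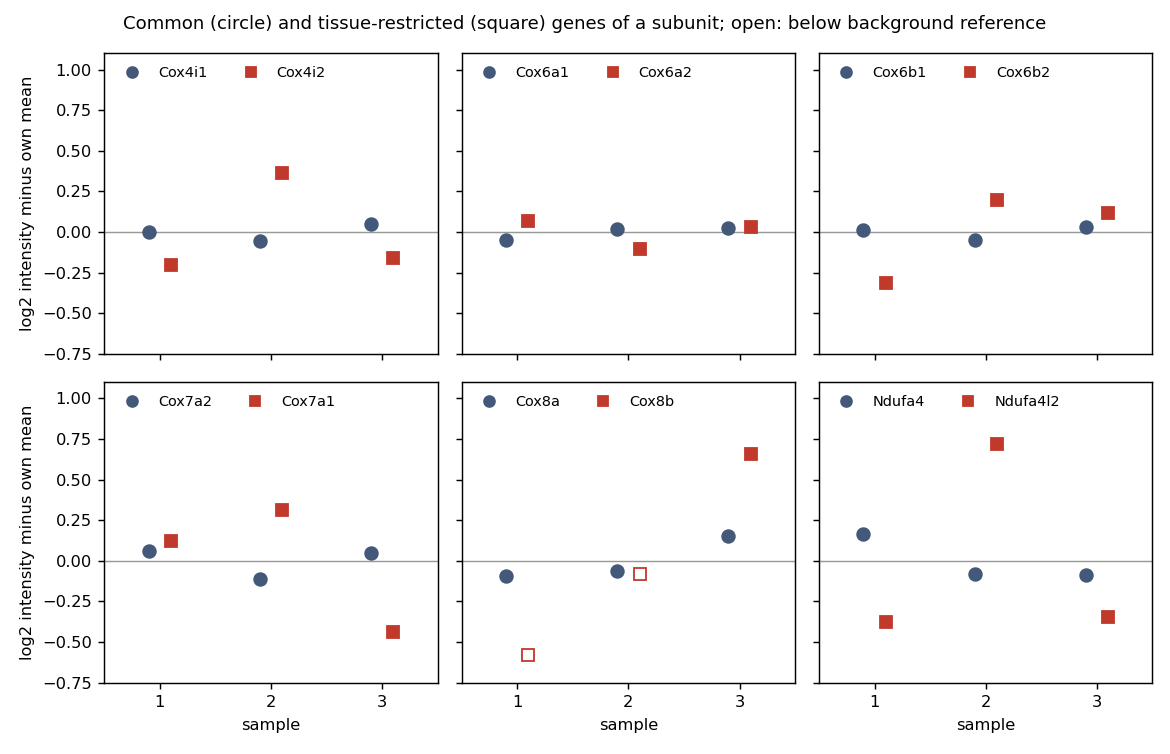
Log2 intensity minus the gene's own mean over the 3 samples (y axis) for 6 pairs of a common gene (blue circles) and its tissue-restricted form (red squares), by sample (x axis); open symbols lie below the background reference. Ndufa4l2, Cox4i2, Cox7a1 and Cox6b2 are highest in sample 2, Cox6a2 is highest in sample 1 and Cox8b in sample 3, and no common gene leaves the band within 0.17 of its mean.

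Of the 9 further mitochondrial lists 8 had a median range below the 0.312 of all genes, and the list for transcription and DNA maintenance had 0.313. The 10 measured genes of mitochondrial DNA, which encode core subunits of complexes I, III and IV, were detected with a median range of 0.150. Of these 7 (70%, against 28.8% of all genes) were highest in sample 1, with sample medians of 0.069, -0.056 and -0.010. ND2, ND4L and COX1 had the widest ranges, 0.203 at most, and stood at 11.47, 11.44 and 11.27, at 11.82, 11.64 and 11.84, and at 12.33, 12.13 and 12.21. These values lie near the top of the arrays, whose highest was 13.18, and whether the signal was saturated was not tested. Assembly factors were detected in 46 of 48 genes, and 25 of these 46 (54.3%, against 28.8% of all genes) were highest in sample 1. Their widest range was that of Sdhaf4, an assembly factor of complex II, at 6.84, 6.37 and 5.67, followed by Uqcc1 at 6.47, 5.78 and 5.89 and Ndufaf7 at 7.56, 7.85 and 8.22.

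Genes that read and keep mitochondrial DNA had the widest span of the pathway lists. The 25 genes for transcription and DNA maintenance had medians of 0.089, -0.058 and -0.095, a span of 0.184. Of the 23 detected on at least 1 array 12 were highest in sample 1 (52.2%, against 28.8% of all genes). As many were lowest in sample 3 (52.2% against 33.3%). Mterf1b read 6.75, 5.09 and 4.93, under the reference outside sample 1, and it has a close paralog, Mterf1a, so its value is uncertain. Polg2, the accessory subunit of the DNA polymerase, was at 7.92, 7.65 and 8.49, and Fastkd2, which processes mitochondrial RNA, at 5.68, 5.07 and 4.98, above the reference in sample 1 alone. Translation factors and tRNA synthetases, 31 of 34 detected, spanned 0.049, with Nsun4 (above the reference on 2 arrays), Mtrf1l and Mrrf the widest at ranges of 0.52, 0.49 and 0.44. Of the 15 regulators 12 were detected and none varied by 1.5-fold, with Gabpb1 the widest at 6.41, 6.30 and 6.71, Myc next at 9.06, 8.76 and 8.83 and Sirt3 at 5.85, 5.93 and 6.14. Ppargc1a, a coactivator of mitochondrial biogenesis, and the receptors Esrrg and Ppara were under the reference on every array.

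The enzymes that feed the chain gave other orders. Citric acid cycle genes, 18 of 19 detected, spanned 0.023, with Idh3a at 6.21, 6.76 and 6.29, Mdh2 at 10.31, 10.36 and 10.81, and Fh1 at 8.99, 8.52 and 8.70. Of 16 fatty acid oxidation genes 15 were detected, and 11 of these (73.3%, against 32.5% of all genes) were highest in sample 2. The list medians were -0.048, 0.082 and -0.036. The carnitine carrier Slc25a20 (6.30, 6.46 and 7.15) and Cpt1a (7.94, 8.39 and 8.66) were highest in sample 3 instead, and Cpt2 was lowest there (7.74, 7.74 and 7.38). All 31 outer membrane, import and carrier genes were detected, with a span of 0.060 and Tomm70a the widest at 8.29, 7.75 and 7.91, before Slc25a11 and Slc25a4 with ranges of 0.45 each. The 19 subunits and carriers that the name rule left out, 17 of them detected, spanned 0.053, with Ptcd3, Coq7 and Coq2 the widest at ranges of 0.59, 0.40 and 0.31. Spans of all 9 pathway lists were below 0.2, while 11 of the 13 marker lists spanned more than 0.4. Of the marker lists not given above, the medians in samples 1 to 3 were 0.077, 0.41 and -0.54 for fibroblasts, 0.19, 0.26 and -0.50 for macrophages and -0.43, -0.019 and 0.36 for neutrophils. They were -0.23, -0.30 and 0.50 for endothelial cells, 0.015, -0.16 and 0.18 for myogenic progenitors and -0.38, 0.59 and 0.028 for gland and airway epithelium.

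**Figure D4:**
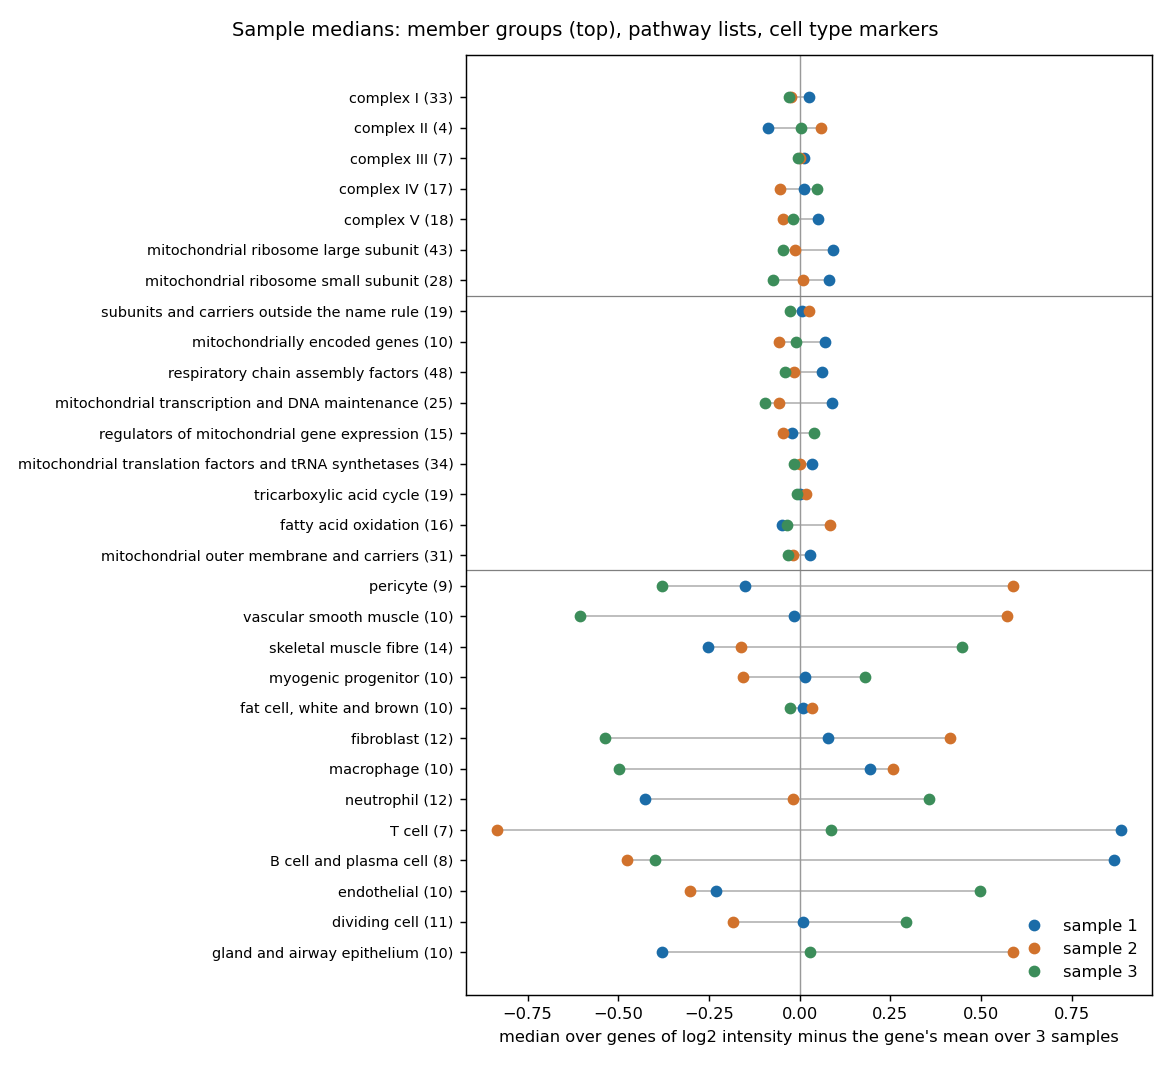
Median over the genes of a list of log2 intensity minus the gene's own mean (x axis), for samples 1 to 3, in the 7 groups of respiratory chain and ribosomal genes (top), 9 further mitochondrial lists (middle) and 13 cell type marker lists (bottom), with the number of measured genes in brackets. All medians of the upper and middle blocks lie between -0.1 and 0.1, and those of pericyte, smooth muscle, T cell and B cell markers reach beyond 0.5.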

How the data were processed

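RNA of 3 sorted stroma samples was read on 1 Affymetrix array each. The deposited values are log2 intensities per probe set, made by the authors with Partek per the submitters' processing notes; that they are log2 was inferred from their range, 2.00 to 13.18. For background correction, normalization and summarization the method is not given in the sources at hand. Array medians were 5.35, 5.34 and 5.36, and the number of arrays limits the precision.

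Genes were named through the platform annotation, with only probe sets of 1 symbol used, and the probe set with the highest mean was kept per gene. This touched 9 genes of the chain or its ribosome, which had 2 probe sets, and left out 23 probe sets with several symbols. All 150 genes matched RefSeq by gene identifier, 149 as protein coding and 1 as a pseudogene. The files hold no detection calls, so receptor probe sets stood in for background. RefSeq promoter windows (GRCm38.p6) were searched on both strands for exact matches to 4 words. Values by sample were given for common and restricted subunits, catalytic and cofactor-bearing subunits, genes without full detection, genes with a range above 1, and the widest and steadiest of each group, and for the widest of each list. The genes, the 9 pathway lists and the 13 marker lists were chosen with earlier results of these data known. As alternatives, other detection levels, quantile normalization, centred arrays, mean probe sets, genes without ties, means and fewer samples were tried. Python 3.11.15, numpy 2.4.6, pandas 2.3.3 and matplotlib 3.10.9 were used, and the scripts were tested on simulated data.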

Additional observations from a re-analysis of the deposited data

How the results depend on the processing

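The number of genes detected on all 3 arrays ran from 125 to 145 over 8 alternatives, against 142, and sample 1 was the highest in 69 to 96 genes over 6, against 77. The 2 genes with a range above 1 became 1 with the 99th percentile as detection level and 5 at 1.5-fold, and 1 whichever sample was left out. Leaving out a sample in turn gave 42 to 80 genes highest in sample 2 and 39 to 57 highest in sample 3. It moved the span of the sample medians to between 0.0033 and 0.061 over all genes, 0.0032 and 0.065 in complex I, 0.061 and 0.146 in complex II, 0 and 0.017 in complex III, 0.045 and 0.107 in complex IV and 0.0053 and 0.104 in complex V. For the large ribosomal subunit it gave 0.023 to 0.125, for the small one 0.038 to 0.157 and for both 0.024 to 0.143. The lowest value came without sample 1 in each of these groups except complex IV, where it came without sample 2. With fewer samples each one left is the highest more often. Counts of highest genes, the 96 for sample 1 among them, are then not comparable with those over 3 samples. Fewer values also enter the range of a gene, which can only lower it. A span of sample medians can also rise, as that of complex I did without sample 2, from 0.055 to 0.065. The span of complex III was 0.089 without tied genes, 0.046 as a mean over genes and 0.038 with the arrays centred on detected genes; the cause was not tested. Single genes depended on 1 array: the range of Ndufa4l2 was 0.033 without sample 2, and that of Cox8b 0.74 without sample 1 and 0.50 without sample 3. The alternatives for the ribosomal subunits and single complexes, and the probe sets with several symbols, were added after seeing the data. No paired analysis was possible because there was 1 group. Signal close to background limits Cox8b, Cox7a1, Cox7b and Mrps14, and with 1 array per sample a difference between samples has no error of its own.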

Other observations

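The 23 probe sets whose annotation gives several symbols, at least 1 of them named for the chain or its ribosome, were kept out of the values above. All 23 were detected on all 3 arrays and none had a range above 1, with a median range of 0.192. Their sample medians were 0.052, -0.060 and -0.021. Of the 23, 12 were highest in sample 1 (52.2%, against 28.8% of all genes). In sample 2 it was 3 (13% against 32.5%) and in sample 3 it was 8 (34.8% against 32.8%).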
